A study of Homo sapiens with 12 samples.

Results

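Transcripts of the insulin-like growth factor (IGF) binding proteins and of the receptors and adaptors of IGF and insulin signalling were followed in 3 human cancer cell lines in normoxia and hypoxia. The set was 10 genes of the 25369 in the count table, taken by name: the binding proteins IGFBP1 to IGFBP6, the receptors IGF1R and INSR, and the receptor substrates IRS1 and IRS2. Poly(A)+ RNA-seq libraries came from RKO colon carcinoma cells, A549 lung adenocarcinoma cells and H460 lung large cell carcinoma cells, each in normoxia or after 24 h in 1% O2, with 2 biological replicates in each of the 6 groups and 12 libraries in all. RKO and A549 grew in DMEM and H460 in RPMI, so line and medium cannot be told apart in comparisons with H460; all cultures held fetal bovine serum and an antibiotic-antimycotic and were plated the day before treatment. The comparisons asked whether 24 h of hypoxia altered these mRNAs, and whether the lines differed in that effect and in the level they started from.

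IGF1, IGF2 and insulin act on cells through IGF1R and INSR, related receptor tyrosine kinases that can also form mixed receptors. The activated receptors phosphorylate the docking proteins IRS1 and IRS2, which recruit PI3-kinase and so feed AKT and mTOR. The secreted IGFBPs bind IGFs outside the cell, prolong their life and mostly restrain their access to IGF1R, while proteases release the ligand again. IGFBP1 and IGFBP3 are long known to respond to low oxygen, and IRS2 is a target of forkhead (FOXO) factors, which AKT keeps out of the nucleus.

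In the GRCh37 coordinates of the deposited annotation, 4 of the 6 binding protein genes lay in 2 neighbouring pairs. IGFBP1 (chr7:45927959-45933267, plus strand) and IGFBP3 (chr7:45951844-45960871, minus strand) faced each other with their 3' ends, 18576 bases apart. IGFBP2 (chr2:217498127-217529158, plus) and IGFBP5 (chr2:217536828-217560272, minus) had the same arrangement, 7669 bases apart. IGFBP4 lay at chr17:38599676-38613982 (plus) and IGFBP6 at chr12:53491436-53496128 (plus). The other 4 genes were IGF1R (chr15:99191768-99507759, plus), INSR (chr19:7112266-7294011, minus), IRS1 (chr2:227596033-227663506, minus) and IRS2 (chr13:110406184-110438914, minus). The counts summed exonic reads over each gene.

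The promoters of 4 genes that were higher in hypoxia in at least 2 lines are given here, so that the letters upstream of each start can be set beside its values. Each is the 250 bases before the start site in the RefSeq promoter table (GRCh38.p14), 5′ to 3′ on the strand of the gene: IGFBP3 at chr7:45921273-45921522 (minus), IGFBP6 at chr12:53097417-53097666 (plus), IGF1R at chr15:98648289-98648538 (plus) and IRS2 at chr13:109786584-109786833 (minus). Capitals mark ACGTG and GCGTG, the core letters bound by hypoxia-inducible factors, and TGTTTAC, a core of forkhead sites, each on either strand, so that a match on the other strand appears as the reverse complement of these letters.
IGFBP3: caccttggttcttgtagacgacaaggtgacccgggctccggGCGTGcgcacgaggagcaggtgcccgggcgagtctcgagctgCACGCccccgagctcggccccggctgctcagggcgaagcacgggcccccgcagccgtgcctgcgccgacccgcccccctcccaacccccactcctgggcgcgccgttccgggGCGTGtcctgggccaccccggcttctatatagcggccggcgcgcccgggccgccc
IGFBP6: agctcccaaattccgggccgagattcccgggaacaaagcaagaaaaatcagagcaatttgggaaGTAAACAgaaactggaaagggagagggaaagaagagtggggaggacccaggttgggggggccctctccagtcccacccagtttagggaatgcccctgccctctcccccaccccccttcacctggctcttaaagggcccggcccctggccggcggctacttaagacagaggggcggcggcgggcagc
IGF1R: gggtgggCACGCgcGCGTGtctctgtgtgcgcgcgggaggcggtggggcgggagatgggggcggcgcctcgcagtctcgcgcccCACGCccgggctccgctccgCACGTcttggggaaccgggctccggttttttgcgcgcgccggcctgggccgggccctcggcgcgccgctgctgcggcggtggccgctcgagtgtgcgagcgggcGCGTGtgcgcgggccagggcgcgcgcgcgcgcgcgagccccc
IRS2: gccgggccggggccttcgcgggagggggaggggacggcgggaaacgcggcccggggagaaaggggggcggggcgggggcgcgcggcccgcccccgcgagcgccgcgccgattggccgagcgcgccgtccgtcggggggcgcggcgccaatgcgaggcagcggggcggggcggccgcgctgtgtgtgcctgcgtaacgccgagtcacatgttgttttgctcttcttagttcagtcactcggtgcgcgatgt

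The table held entries for 9 of the 10 genes, all but IGFBP1. IGFBP3 had 3 GCGTG matches, with first bases at -209, -167 and -55 from the start site. The IGF1R promoter carried 5 matches, 1 of ACGTG and 4 of GCGTG, and IGFBP6 carried 1 match of TGTTTAC and neither hypoxia core. None of the 3 motifs was found in the printed bases of IRS2. Counting also the 50 bases after the start site, 4 of the 9 genes had ACGTG or GCGTG in an entry (IGFBP2, IGFBP3, IGF1R and IRS1), against 48.4% of 35116 promoters of the same length. The units differ: the 9 genes had 11 entries, IGFBP2 with more than 1, whereas the 48.4% counts single entries. TGTTTAC was present in 3.42% of those promoters. Of the genes with a hypoxia core, IGFBP3 was called in A549 and H460 and IGF1R in RKO and H460, while IGFBP2 and IRS1 were called in no line. Of those without, IGFBP4, IGFBP5, IGFBP6 and IRS2 were called in a line or more and INSR in none. The part of the matches in these values was not tested. A match is a description of letters only.

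Total counts ran from 27350424 to 41757584 per library, and replicates of every group differed by more than counting noise, with a chi-square of 9.60 (H460 hypoxia) to 72.0 (A549 normoxia) per degree of freedom. The hypoxia check genes CA9, NDRG1, VEGFA, PDK1 and ANKRD37 were called higher in 5 of 5 cases in RKO and H460 and in 4 of 5 in A549. Their summed scaled RPKM was 382 and 793 in hypoxic A549, the replicates standing apart, against 40.6 and 55.4 in normoxic A549. Among the colon markers, CDX2 was found in RKO (mean 6.52 in normoxia), while CDX1, VIL1, CDH17, KRT20 and LGALS4 were at or near 0 there, and among the lung markers the surfactant genes were at or near 0 in both lung lines. Of 7 stromal and blood markers, DCN, COL1A2, PTPRC and PECAM1 were at or near 0 in all groups. COL1A1 was called higher in hypoxia in RKO and A549, and VWF in RKO. In RKO both were near 0, with means of 0.0672 and 0.314 for COL1A1 and 0.0117 and 0.0579 for VWF in normoxia and hypoxia. Only the hypoxic libraries gave them enough reads for a test there, so nothing is read from the RKO calls. The sum of the stromal and blood list was 7.99 and 14.1 in normoxic and 22.0 and 72.6 in hypoxic A549, at most 6.03 in H460 and at most 0.438 in RKO. Nearly all of the A549 sum was COL1A1, at 7.92 and 14.0 in normoxia and 21.9 and 72.4 in hypoxia. Of the epithelial markers, 1 of 4 tested was called in RKO (KRT18, lower), 0 of 5 in A549 and 1 of 4 in H460 (KRT19, higher). Their sum was 119 to 126 in normoxic and 65.3 to 67.5 in hypoxic RKO, 1326 to 1620 and 1274 to 1278 in A549, and 1032 to 1108 and 1449 to 1571 in H460, each sum being carried by keratins. The lung marker NKX2-1 was called higher in H460 (mean 0.0141 in normoxia and 1.41 in hypoxia). Its hypoxic libraries alone gave it enough reads for a test, so nothing is read from that call. The part of these markers in the results was not tested.

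Levels are given as scaled RPKM, the RPKM (reads per kb of exon, relative to sequencing depth) recomputed with library sizes scaled by TMM over all 12 libraries, so that genes and libraries can be compared. Hypoxia was tested within each line on the counts (edgeR's quasi-likelihood test, Benjamini-Hochberg adjustment over all genes tested), and a gene was called when the adjusted p was under 0.1 and the change over 1.5-fold. In bulk RNA, fewer cells holding an mRNA and less of it per cell cannot be told apart.

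**Figure D1:**
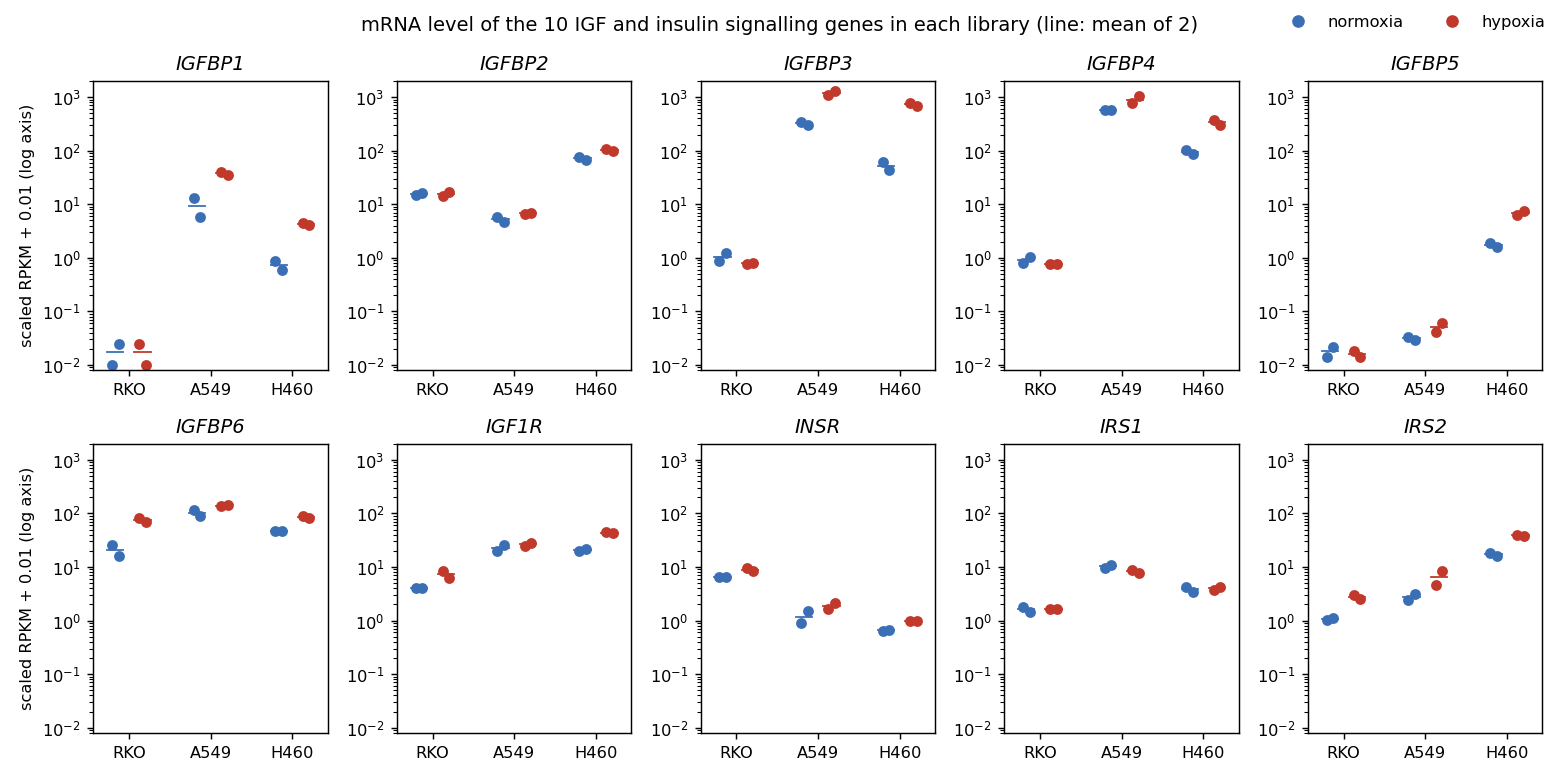
Scaled RPKM plus 0.01 (log axis) of each of the 10 genes in the 12 libraries, grouped by line, with normoxia in blue and hypoxia in red. Points are libraries and bars the means of 2; IGFBP3 and IGFBP4 are lowest in RKO and highest in A549, where IGFBP3 reaches 1287, and the IRS1 groups overlap in RKO and H460.

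IGFBP3, the main IGF carrier of blood, had the largest fold change measured among the 10 genes, in H460. It stood there at 61.1 and 44.2 scaled RPKM in normoxia and at 795 and 692 in hypoxia. Both hypoxic libraries were far above both normoxic ones, and the fit gave a 14.0-fold rise (log2 3.80 ± 0.16 SE, n = 2 and 2, edgeR adjusted p = 3.09e-09). In A549, IGFBP3 was at 350 and 306 in normoxia and 1094 and 1287 in hypoxia, again without overlap, a 3.59-fold rise (log2 1.84 ± 0.19, edgeR adjusted p = 0.00441). By then it took 0.288% and 0.326% of all counted reads of the hypoxic A549 libraries. RKO had almost none: 0.858 and 1.23 in normoxia, 0.768 and 0.800 in hypoxia. The RKO difference of -0.47 ± 0.33 (95% interval -1.19 to 0.24, adjusted p = 0.275) was not called.

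IGFBP4, which mainly inhibits IGF action and is cut by the protease PAPPA, had the same order of lines. It stood at 104 and 88.3 scaled RPKM in normoxic H460 and at 380 and 301 in hypoxic H460. The groups did not overlap, and IGFBP4 rose 3.50-fold (log2 1.81 ± 0.13, edgeR adjusted p = 1.50e-07). A549 held the highest level of any binding protein in normoxia, 581 and 570, with 776 and 1032 in hypoxia. Both hypoxic libraries were higher, but replicate 2 far more than replicate 1, and the difference of 0.63 ± 0.19 missed the threshold (adjusted p = 0.168). With the replicate number as a block it was called (log2 0.62, adjusted p = 0.00263), as it was in the joint fit of all lines (0.65, adjusted p = 0.0452). RKO had little IGFBP4, at 0.784 and 1.03 in normoxia and 0.760 and 0.775 in hypoxia (difference -0.30 ± 0.33, adjusted p = 0.503).

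IGFBP1, a binding protein made chiefly by liver and controlled by insulin, rose in both lung lines. A549 had 904 and 391 reads in normoxia (mean 9.43 ± 5.12 SD scaled RPKM, n = 2) and 2815 and 1988 in hypoxia (37.9 ± 4.11). Although the normoxic replicates differed more than 2-fold, both lay below both hypoxic libraries, and IGFBP1 rose 3.98-fold (log2 1.99 ± 0.34, edgeR adjusted p = 0.0266). Its size depended on the normoxic library used, with log2 2.70 without A549 normoxia replicate 1 and 1.52 without replicate 2. In H460 the gene was low, 0.860 and 0.586 in normoxia (40 and 33 reads) and 4.53 and 4.07 in hypoxia (177 and 193 reads), and it rose 5.92-fold (log2 2.57 ± 0.23, edgeR adjusted p = 1.22e-06). RKO had 0 and 1 reads of IGFBP1 in normoxia and 1 and 0 in hypoxia, too few to test.

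IGFBP6, which prefers IGF2 over IGF1, was the only binding protein called in RKO. It stood at 26.3 and 15.8 scaled RPKM in normoxia and 82.0 and 70.6 in hypoxia. Both hypoxic RKO libraries were higher than both normoxic ones, a 3.48-fold rise (log2 1.80 ± 0.23, edgeR adjusted p = 0.000343). In H460, IGFBP6 went from 47.4 and 47.0 to 89.6 and 80.4, a 1.78-fold rise (log2 0.83 ± 0.09, edgeR adjusted p = 5.98e-06) that stayed under 1.5-fold, at log2 0.48, with library size alone as the scale, where the median of all genes was -0.39. A549 had the highest normoxic level, 117 and 89.9, and 139 and 142 in hypoxia, without overlap but below the threshold (log2 0.43 ± 0.18, adjusted p = 0.287).

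IGFBP5, an IGFBP that binds extracellular matrix, had enough reads for a test in H460 only. H460 had 1.89 and 1.61 scaled RPKM in normoxia (333 and 342 reads) and 6.20 and 7.65 in hypoxia (916 and 1373 reads). The groups did not overlap, and IGFBP5 rose 3.93-fold (log2 1.97 ± 0.14, edgeR adjusted p = 1.33e-07). A549 had 6 and 5 reads in normoxia and 8 and 11 in hypoxia, and RKO had 1 and 3 and then 2 and 1, so the gene was not tested in either. Its chromosomal neighbour IGFBP2, an IGFBP with higher affinity for IGF2, was abundant in the same line: H460 had 77.7 and 66.5 in normoxia and 106 and 98.9 in hypoxia. The hypoxic libraries were the higher pair, and the adjusted p was 0.000647, but the difference of log2 0.49 ± 0.10 stayed under 1.5-fold and was not called. IGFBP2 was at 14.6 and 16.1 in normoxic RKO and 14.5 and 17.3 in hypoxic RKO, which overlapped (difference -0.01 ± 0.18, adjusted p = 0.967). A549 had 5.73 and 4.67, then 6.65 and 6.82 (difference 0.36 ± 0.25, adjusted p = 0.511).

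The sum of the 6 binding proteins showed how much IGFBP mRNA each line carried. In A549 it was 1067 and 977 scaled RPKM in normoxia and 2056 and 2503 in hypoxia, and in H460 it was 293 and 248, then 1382 and 1184. RKO had 42.6 and 34.1, then 98.0 and 89.4. The hypoxic libraries were above the normoxic ones in all 3 lines. The mix moved as well. IGFBP3 made up 32.8% and 31.3% of the sum in normoxic A549 and 53.2% and 51.4% in hypoxic A549, and 20.9% and 17.8%, then 57.5% and 58.4%, in H460. IGFBP4 held the larger share in normoxic A549, 54.5% and 58.4%, and IGFBP3 held it in hypoxia. In H460 the share of IGFBP2 was 26.5% and 26.8% in normoxia and 7.69% and 8.35% in hypoxia, with its own level no lower. RKO divided its small pool between IGFBP2 and IGFBP6, and IGFBP6 made up 61.7% and 46.2% in normoxia and 83.7% and 78.9% in hypoxia. These shares follow from the levels above and were given no test of their own.

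**Figure D2:**
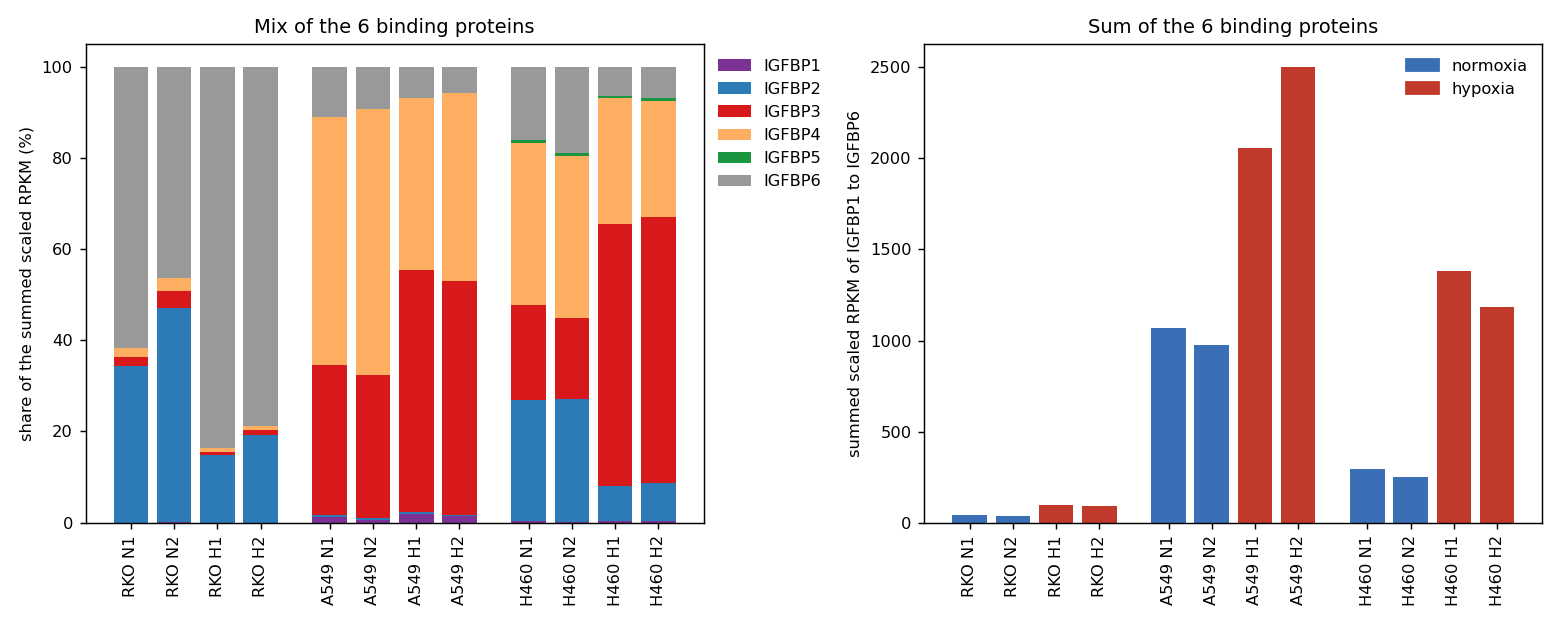
Left, share (%) of each binding protein in the summed scaled RPKM of IGFBP1 to IGFBP6 in every library (N, normoxia; H, hypoxia; digit, replicate). Right, the sum itself (bars from 0; blue normoxia, red hypoxia); A549 holds the highest sums, up to 2503, and IGFBP3 takes the largest share in hypoxic A549 and H460.

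IGF1R, the receptor for IGF1 and IGF2, was higher in hypoxia in RKO and H460. RKO had 4.04 and 3.97 scaled RPKM in normoxia and 8.57 and 6.17 in hypoxia, and IGF1R rose 1.76-fold (log2 0.82 ± 0.18, edgeR adjusted p = 0.00466). H460 had 20.2 and 22.0, then 44.5 and 43.6, a 2.06-fold rise (log2 1.05 ± 0.09, edgeR adjusted p = 9.72e-07). Neither pair of groups overlapped. In A549 they did: IGF1R was at 20.0 and 25.3 in normoxia and 24.6 and 28.3 in hypoxia, with a difference of log2 0.21 ± 0.19 (adjusted p = 0.622).

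INSR, the insulin receptor, was not called in any line in the main fits, which had no replicate block. RKO, where it was most abundant, had 6.41 and 6.60 scaled RPKM in normoxia and 9.55 and 8.35 in hypoxia (log2 0.40 ± 0.15, adjusted p = 0.0572, under 1.5-fold). H460 had 0.634 and 0.657, then 0.964 and 0.971. Those groups stood well apart, and the adjusted p was 0.00502, but log2 0.57 ± 0.15 lay just under the 1.5-fold threshold, and DESeq2 put it just over (0.60, adjusted p = 0.0132). A549 had 0.891 and 1.47, then 1.65 and 2.10 (log2 0.66 ± 0.28, adjusted p = 0.287), which was called with the replicate block (log2 0.69, adjusted p = 0.0171). In all 3 lines both hypoxic libraries were above both normoxic ones.

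The lines differed sharply in which receptor mRNA prevailed. Per library, IGF1R over INSR was 0.630 and 0.602 in normoxic RKO, 22.5 and 17.3 in normoxic A549 and 31.8 and 33.5 in normoxic H460. RKO thus carried more INSR than IGF1R per kb, and the lung lines the reverse. In hypoxia RKO stayed under 1, at 0.898 and 0.739. The ratio was 46.1 and 44.9 in hypoxic H460, above its normoxic libraries, and 14.9 and 13.5 in hypoxic A549, below them. These ratios were given no test.

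IRS2, the substrate with a large role in the liver and the beta cell, was called higher in all 3 lines. It was the only such gene of the 8 that had enough reads for a test in every line. The matching share over all genes was not counted. The A549 calls limit it, since 316 genes (2.22% of those tested there) passed as higher. RKO had 1.02 and 1.10 scaled RPKM in normoxia and 2.93 and 2.55 in hypoxia, and IRS2 rose 2.48-fold (log2 1.31 ± 0.21, edgeR adjusted p = 0.00100). H460 had 18.6 and 15.8, then 40.4 and 37.7, a 2.25-fold rise (log2 1.17 ± 0.10, edgeR adjusted p = 8.14e-07). In A549 it was at 2.44 and 3.11 in normoxia and 4.54 and 8.29 in hypoxia. The A549 groups did not overlap and IRS2 rose 2.29-fold (log2 1.19 ± 0.29, edgeR adjusted p = 0.0929), but 1 library carried much of this. Without A549 hypoxia replicate 2 the value was log2 0.71 (adjusted p = 0.480), and without A549 normoxia replicate 1 it was 1.03 (adjusted p = 0.152), so neither was called. The call was also lost with library size alone (adjusted p = 0.157) and with limma (0.203 and 0.235 at pseudocounts of 0.1 and 1). Replicate 2 was also the hypoxic A549 library with the higher sum of the hypoxia check genes, 793 against 382, and the part of that in the IRS2 values was not tested.

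IRS1, the other widely expressed substrate, was called in no line. RKO had 1.81 and 1.45 scaled RPKM in normoxia and 1.66 and 1.63 in hypoxia, and H460 had 4.15 and 3.45, then 3.76 and 4.25. Both sets overlapped, with differences of -0.05 ± 0.21 (adjusted p = 0.880) and 0.06 ± 0.11 (95% interval -0.19 to 0.32, adjusted p = 0.629) on the log2 scale. A549 had 9.64 and 11.0, then 8.66 and 7.85, both hypoxic libraries being lower (log2 -0.34 ± 0.17, adjusted p = 0.368). The ratio of IRS2 to IRS1 was therefore higher in every hypoxic library than in the normoxic libraries of its line. It was 0.567 and 0.755 in normoxic RKO and 1.77 and 1.56 in hypoxic RKO, so that IRS1 led in normoxia and IRS2 in hypoxia. In A549 the ratio was 0.253 and 0.282, then 0.525 and 1.06. H460 had far more IRS2 than IRS1 throughout, with ratios of 4.49 and 4.58, then 10.7 and 8.89.

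**Figure D3:**
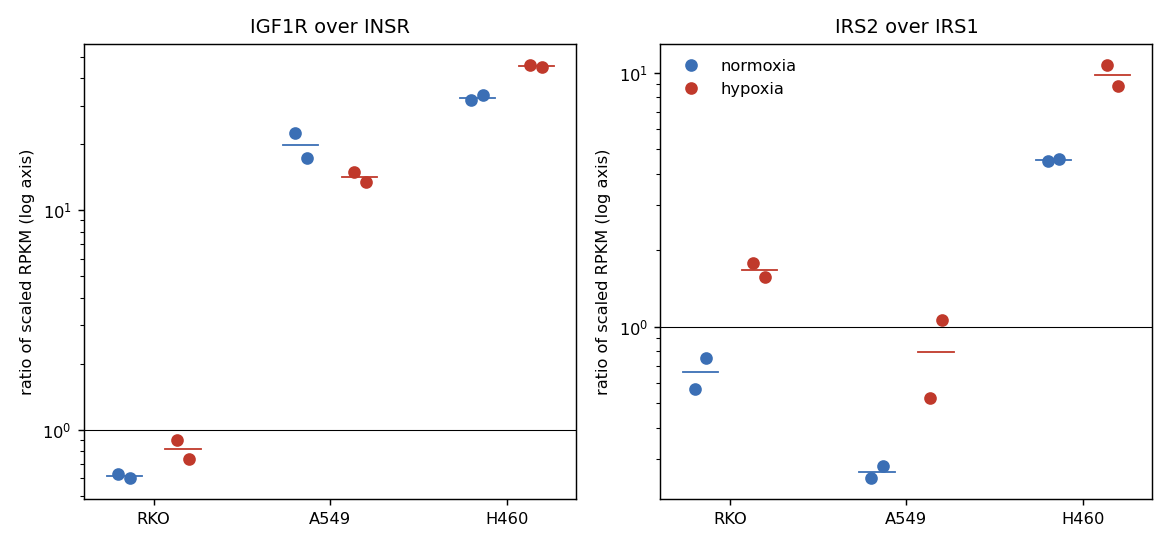
Ratios of scaled RPKM (log axes) of IGF1R over INSR (left) and IRS2 over IRS1 (right) per library, by line, with normoxia in blue and hypoxia in red; points are libraries, bars the means of 2, and the line marks a ratio of 1. IRS2 over IRS1 is higher in hypoxia in each line, and IGF1R over INSR is under 1 in RKO only.

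Counted together, 3 of the 8 genes tested in RKO were called, all higher, beside 33.9% of all genes called in that line and 18.8% called higher. In A549 it was 3 of 9, all higher, beside 2.67% of all genes called and 2.22% called higher. H460 had 7 of 10, all higher, beside 51.9% of all genes called and 24.6% called higher. Over 8 genes and without a test, the RKO count was near the 33.9% called in either direction and above the 18.8% called higher. None of the 10 genes was called lower in any line, where 15.1% of all genes were in RKO, 0.456% in A549 and 27.3% in H460. Over the genes tested, the median log2 difference was 0.19 for RKO, 0.63 for A549 and 1.11 for H460, beside 0.01, -0.01 and -0.04 over all genes. With the replicate number as a block the A549 count was 5, with IGFBP4 and INSR added, and all genes called there went from 316 higher and 65 lower to 1189 and 723. In H460, scaling by library size alone shifted the median of all genes from -0.04 to -0.39 and the split of its calls from 3467 higher and 3837 lower to 2075 and 5758. In RKO the same scaling moved the split from 2415 higher and 1930 lower to 2744 and 1503, and in A549 from 316 higher and 65 lower to 151 and 41.

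**Figure D4:**
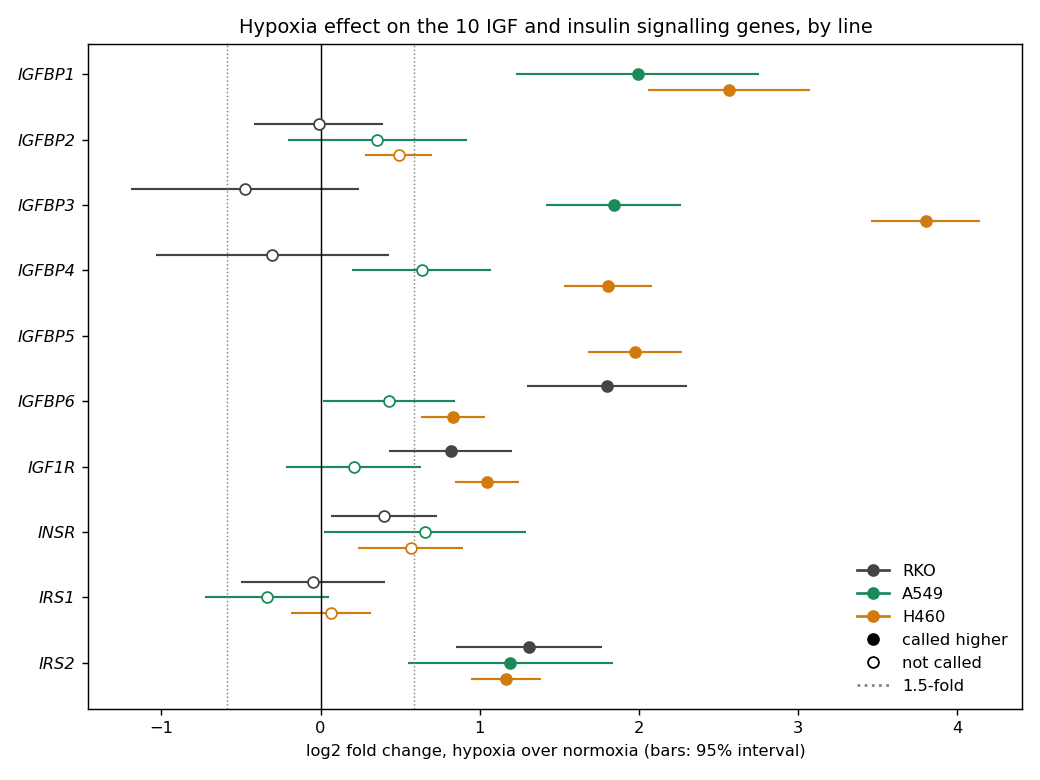
Log2 fold change of hypoxia over normoxia with its 95% interval for each gene in RKO, A549 and H460. Filled points were called higher and open points were not called; dotted lines mark 1.5-fold; IGFBP3 in H460 lies farthest right at 3.80, and IRS2 is filled in all 3 lines.

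Whether hypoxia acted differently between lines was tested directly as the interaction of line and condition in a joint fit of the 12 libraries, called at an adjusted p under 0.1. The 3 comparisons between lines share libraries. Between RKO and H460, 4 of the 10 genes were called (37.6% of all genes), 1 with the larger effect in RKO (21.1% of all genes) and 3 with the smaller (16.4%). These counts include IGFBP1 and IGFBP5, which had 2 and 7 reads in RKO and entered the joint fit through other lines; over the other 8 genes, 3 were called. The hypoxia effect on IGFBP3 was smaller in RKO (RKO minus H460, log2 -4.24 ± 0.31, edgeR adjusted p = 3.35e-06), as was that on IGFBP4 (-2.07 ± 0.30, adjusted p = 0.000232). IGFBP6 went the other way, with a larger effect in RKO (1.01 ± 0.28, adjusted p = 0.0154). Nothing is read from the call for IGFBP5. IGFBP2 differed by -0.46 ± 0.21 (adjusted p = 0.122) and was called with the replicate block (-0.47, adjusted p = 0.0508).

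RKO and A549 differed in 3 genes, IGFBP3, IGFBP4 and IGFBP6, where 14.6% of all genes were called, 9.03% with the larger effect in RKO and 5.53% with the smaller. The effect was smaller in RKO for IGFBP3 (-2.28 ± 0.30, edgeR adjusted p = 0.000895) and larger for IGFBP6 (1.42 ± 0.28, adjusted p = 0.00966). For IGFBP4 it was smaller in RKO (-0.90 ± 0.29, adjusted p = 0.0749), a call lost when any of 5 libraries was left out: A549 hypoxia replicate 2, A549 normoxia replicate 2, either RKO hypoxia library or RKO normoxia replicate 2 (adjusted p = 0.128 to 0.243). The IGF1R effect differed by 0.66 ± 0.24 (adjusted p = 0.101), just past the threshold, and was called with the replicate block (0.63, adjusted p = 0.0267) and by DESeq2 (0.61, adjusted p = 0.0877). A549 and H460 differed in IGFBP3 (-1.96 ± 0.27, adjusted p = 0.000243), IGFBP4 (-1.17 ± 0.25, adjusted p = 0.00384) and IGF1R (-0.84 ± 0.24, adjusted p = 0.0175), 3 genes in all beside 36% of all genes, each with the larger effect in H460 (17.2% of all genes).

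For IRS2 no difference between lines was called. Its hypoxia effect in RKO minus that in A549 was log2 0.16 ± 0.32 (95% interval -0.53 to 0.85), RKO minus H460 0.19 ± 0.32 (-0.49 to 0.86) and A549 minus H460 0.03 ± 0.31 (-0.64 to 0.69). These intervals still allow differences of over 1.5-fold. The IGFBP1 effect in A549 minus H460 was -0.57 ± 0.47 (adjusted p = 0.395), and INSR and IRS1 were not called between any pair of lines.

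In normoxia the lines differed in nearly every gene: 9 of 10 were called between RKO and A549 (60.2% of all genes), 10 of 10 between RKO and H460 (61.9%) and 9 of 10 between A549 and H460 (52.1%). Against A549, RKO was higher in 2 (26% of all genes) and lower in 7 (34.1%). Against H460 it was higher in 1 (27.2%) and lower in 9 (34.7%), and A549 was higher than H460 in 6 (26.9%) and lower in 3 (25.2%). These counts include IGFBP1 and IGFBP5 in RKO, and IGFBP5 in A549 (6 and 5 normoxic reads). There the genes entered the joint fit through other lines, so their direction was fixed and nothing is read from such calls. IGFBP3 and IGFBP4 ran RKO, H460, A549 from low to high. A549 exceeded H460 6.23-fold in IGFBP3 (log2 2.64 ± 0.20, edgeR adjusted p = 4.32e-08) and 5.98-fold in IGFBP4 (log2 2.58 ± 0.19, adjusted p = 2.83e-08). In IGFBP3, RKO minus H460 was log2 -5.65 ± 0.24 (adjusted p = 3.90e-11) and RKO minus A549 -8.29 ± 0.26 (adjusted p = 2.42e-12). IGFBP6 had the same order with smaller steps, RKO minus H460 being log2 -1.17 ± 0.20 and A549 lying 2.19-fold over H460. IGFBP2 ran A549, RKO, H460, with 13.9-fold between the ends (A549 minus H460, log2 -3.79 ± 0.17). For IGFBP1 and IGFBP5 the RKO levels rest on 1 and 4 normoxic reads, so no fold is given against them.

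Among receptors and substrates, INSR ran H460, A549, RKO from low to high and was the only one of the 4 that was highest in RKO. It was 10.1-fold higher in RKO than in H460 (log2 3.33 ± 0.22, edgeR adjusted p = 6.72e-09) and 1.82-fold higher in A549 than in H460 (0.87 ± 0.21, adjusted p = 0.00300), the latter below 1.5-fold without A549 normoxia replicate 2 (log2 0.47). IGF1R was lowest in RKO (RKO minus A549, log2 -2.50 ± 0.18), while A549 and H460 were not called apart (0.10 ± 0.17, adjusted p = 0.612). IRS1 ran RKO, H460, A549, with A549 minus H460 at 1.44 ± 0.16. IRS2 ran RKO, A549, H460, with H460 16.2-fold over RKO (RKO minus H460, log2 -4.02 ± 0.25) and 6.21-fold over A549 (A549 minus H460, -2.63 ± 0.23). The 2 substrates were thus highest in different lung lines.

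Over all 6 groups, the hypoxic level of some genes in one line came near or passed the level of another line. By the means, IGFBP2, IGFBP3, IGFBP4, IGFBP6, IRS1 and IRS2 kept their normoxic order of lines in hypoxia. The IGF1R means of A549 and H460, not called apart in normoxia, changed order, from 22.7 and 21.1 to 26.5 and 44.0. Hypoxic H460 reached 795 and 692 scaled RPKM of IGFBP3, above normoxic A549 (350 and 306) and below hypoxic A549 (1094 and 1287). For IGFBP6, hypoxic RKO (82.0 and 70.6) overlapped hypoxic H460 (89.6 and 80.4), and the highest hypoxic H460 library lay just under the lowest normoxic A549 library (89.9). For IGF1R, both A549 groups and normoxic H460 overlapped between 20.0 and 28.3, with hypoxic H460 above and both RKO groups below. IRS2 in hypoxic RKO (2.93 and 2.55) lay within the range of normoxic A549 (2.44 and 3.11). INSR kept its order of lines in hypoxia, and the lowest RKO library (6.41) was above every library of the lung lines.

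The rest of the pathway was read from 3 lists. The list of ligands, carriers and proteases held 14 genes, that of receptor-proximal adaptors 15 and the PI3-kinase to mTOR and FOXO core 29. Over all 58, 47 were tested in RKO with 5 called higher and 2 lower, 50 in A549 with 1 higher and 0 lower, and 51 in H460 with 16 higher and 4 lower. The background over all genes was 24.6% higher and 27.3% lower for H460, 18.8% and 15.1% for RKO, and 2.22% and 0.456% for A549. These shares are given as a description, without a test. Medians were 0.05 in RKO, -0.01 in A549 and 0.28 in H460.

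Ligand transcripts were almost absent from all lines. IGF1 and INS had 0 reads in all 12 libraries, and IGF2 had at most 21, in A549 hypoxia replicate 2. Of the list with carriers and proteases, 0 of 5 tested were higher and 1 lower in RKO, 1 of 8 was higher in A549 and 3 of 10 were higher in H460. STC1, a secreted glycoprotein that inhibits the IGFBP protease PAPPA, was at 4.75 and 3.06 scaled RPKM in normoxic H460 and 87.2 and 85.6 in hypoxic H460, a 22.0-fold rise (log2 4.46 ± 0.17, edgeR adjusted p = 1.84e-09). In A549, STC1 rose 3.74-fold, from 10.4 and 10.9 to 28.4 and 52.5 (log2 1.90 ± 0.27, adjusted p = 0.0121). INSRR, an orphan relative of INSR, rose 2.47-fold in H460 (log2 1.30 ± 0.14, adjusted p = 4.34e-06). ADAM12, a metalloprotease that can cut IGFBP3 and IGFBP5, rose in H460 (log2 1.71 ± 0.22, adjusted p = 2.78e-05), and the protease HTRA1 fell in RKO (log2 -1.34 ± 0.45, adjusted p = 0.0361). ADAM12 and HTRA1 were named after their values were seen, because their read counts were too low for the naming rule. HTRA1 had 29 and 39 reads in normoxic RKO and 12 and 16 in hypoxic RKO. Only the normoxic libraries gave it enough reads for a test there, so nothing is read from that call.

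Of the adaptors, 3 of 13 were higher in RKO, 0 of 13 were called in A549, and 4 of 12 were higher and 1 lower in H460. GAB1, a docking protein beside the IRS proteins, rose in RKO (log2 0.75 ± 0.23, edgeR adjusted p = 0.0231) and H460 (1.31 ± 0.13, adjusted p = 2.40e-06). SH2B2, an adaptor of the insulin receptor, did the same, with 0.60 ± 0.25 (adjusted p = 0.0774) and 1.14 ± 0.19 (adjusted p = 0.000212). GRB10, which inhibits IGF1R and INSR, rose 2.54-fold in H460 (1.34 ± 0.09, adjusted p = 8.08e-08). ENPP1, a membrane inhibitor of INSR, fell in H460 (-1.83 ± 0.22, adjusted p = 1.35e-05).

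In the PI3-kinase to FOXO core, 2 of 29 were higher and 1 lower in RKO, 0 of 29 were called in A549, and 9 were higher and 3 lower in H460. FOXO3, a forkhead factor restrained by AKT, rose in RKO (log2 0.80 ± 0.23, edgeR adjusted p = 0.0207) and 3.82-fold in H460 (1.93 ± 0.11, adjusted p = 2.27e-08). Its relative FOXO4 (1.95 ± 0.14, adjusted p = 1.63e-07) and RICTOR, a subunit of mTOR complex 2 (1.21 ± 0.09, adjusted p = 2.18e-07), rose in H460. The kinase gene MTOR fell there, from 12.7 and 14.0 scaled RPKM to 5.14 and 5.89 (-1.29 ± 0.10, adjusted p = 3.44e-07), as did PIK3R3, a regulatory subunit of PI3-kinase (-0.89 ± 0.18, adjusted p = 0.000743), and EIF4EBP1, a translational repressor controlled by mTOR (-0.84 ± 0.09, adjusted p = 4.11e-06). In RKO the catalytic subunit PIK3CD rose (1.09 ± 0.19, adjusted p = 0.00178) and the S6 kinase RPS6KB1 fell (-0.60 ± 0.16, adjusted p = 0.0113).

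**Figure D5:**
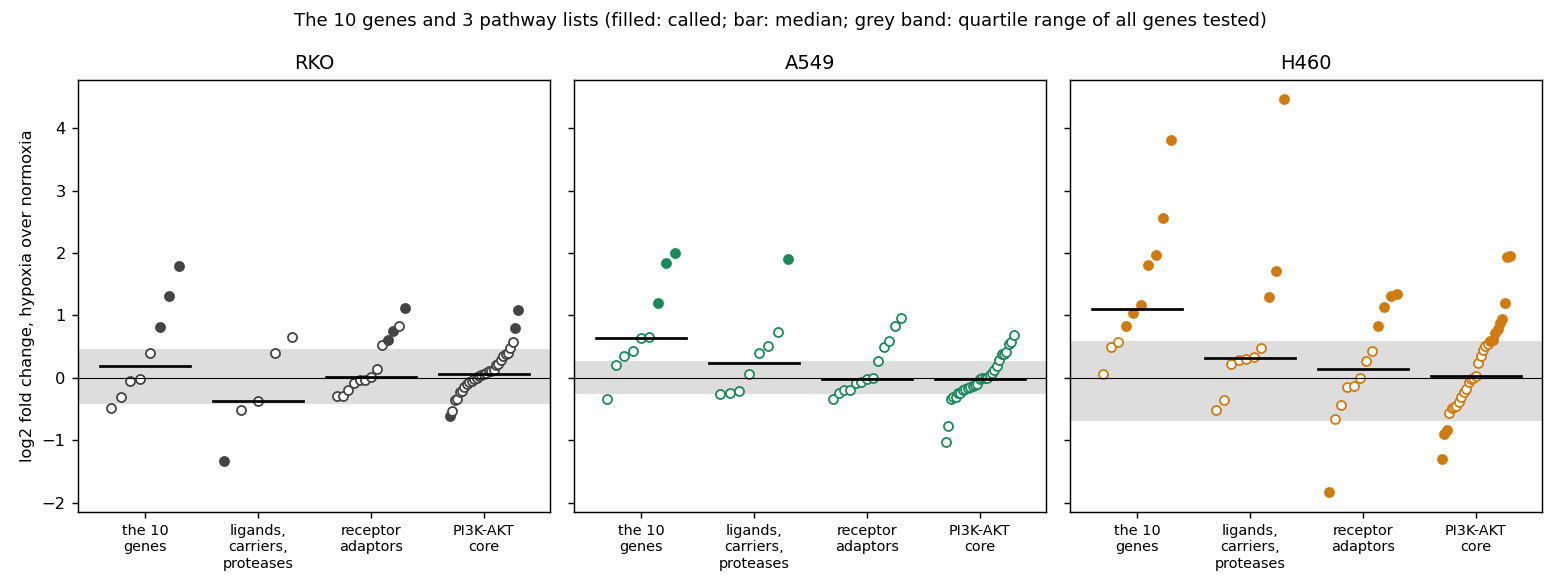
Log2 fold change of hypoxia over normoxia for the 10 genes and the 3 pathway lists in each line; each point is a gene tested, filled where called, the bar is the median of the group and the grey band runs from the lower to the upper quartile of all genes tested. The medians of the 10 genes, 0.19, 0.63 and 1.11, lie above those of the PI3-kinase core (0.06, -0.02 and 0.03).

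Genes most like each of the 10 were sought by the Pearson correlation of log2 CPM over the 12 libraries, among 12424 genes with a mean of at least 100 counts. The libraries share lines, so these values mostly follow differences between lines, and they carry no test. IGFBP3 was closest to TYMP (r = 0.997), IGFBP4 to RGAG4 (0.998), IGFBP5 to CRYAB (0.997) and IGF1R to ZMIZ1 (0.996). IGFBP2 was closest to KIF26A and IRS1 to IL18, both at 0.993. IRS2 had NFATC4 as its nearest gene (0.991), IGFBP1 had PLOD2, a collagen-modifying enzyme (0.988), and INSR had SCARF1 (0.988). IGFBP6 had the loosest match, AHNAK2 (0.973).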

How the data were processed

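Strand-specific poly(A)+ RNA-seq was made from 12 libraries, 2 independent biological replicates for each of the 6 groups, grouped by the sample labels. The authors aligned reads to GRCh37/hg19; the submitters' processing notes name FastQC 0.11.5, TopHat2 2.0.13, Bowtie2 2.2.3.0, SAMtools 1.3.1, Picard 1.129 and HTSeq 0.6.1. They deposited a raw count per gene and RPKM values, which equalled the count over exon length and over the library's counted reads. RPKM therefore keeps no correction for composition. Start positions counted from 0 and were raised by 1.

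Tests used the genes that exceeded 0.5 CPM in 2 or more of the fitted libraries and ran on the deposited counts with edgeR 4.0.16 (R 4.3.3, TMM factors, quasi-likelihood F test), per line for hypoxia and jointly for differences between lines. Calls needed an adjusted p under 0.1 and, except for differences of effects, a 1.5-fold change. The SE is the log2 fold change over the square root of F. The fits were checked on simulated data. Alternatives were DESeq2 1.42.0, limma 3.58.1 on log2(RPKM + 0.1) or log2(RPKM + 1), RLE or no scaling factors, other filters, stricter thresholds, the joint fit, a replicate block and leaving out each library. Replicate numbers come from the labels. Same-numbered libraries deviated together in each line (r = 0.343 across 12817 genes for RKO, 0.349 across 14251 for A549 and 0.118 across 14080 for H460). Genes are not independent in these correlations. The main tests did not use the numbers as pairs. Blocked values, which do, are given where they change a call.

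The 10 genes, the lists and the tests were chosen with earlier results of these data known. From each list, up to 3 genes called higher and 3 called lower per line were named, those of largest change with a mean of at least 100 counts, and for each of the 10 genes the 3 most correlated genes were computed, of which the first is named. Some genes that these rules cover are not reported here. With 2 replicates per group, the p-values set each difference against the spread between these samples, which the fits estimated partly over all genes tested. Values in the report are n = 2 per group.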

Additional observations from a re-analysis of the deposited data

Results flagged for a closer look

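The hypoxia effect, hypoxia minus normoxia on the log2 scale, differed between lines for IGFBP3, IGFBP4, IGFBP6 and IGF1R in the test of the interaction (edgeR, adjusted p under 0.1). IGFBP3 had a different effect in every pair, with RKO minus A549 at -2.28 (SE 0.30, adjusted p = 0.000895), RKO minus H460 at -4.24 (SE 0.31, adjusted p = 3.35e-06) and A549 minus H460 at -1.96 (SE 0.27, adjusted p = 0.000243). IGFBP4 did so too, at -0.90 (SE 0.29, adjusted p = 0.0749), -2.07 (SE 0.30, adjusted p = 0.000232) and -1.17 (SE 0.25, adjusted p = 0.00384) in the same order. Its call in RKO minus A549 was lost on leaving out some single libraries, as given above. The value there was -1.09 to -0.67 when a library was left out. IGFBP6 had a larger effect in RKO, by 1.42 over A549 (SE 0.28, adjusted p = 0.00966) and 1.01 over H460 (SE 0.28, adjusted p = 0.0154). The IGF1R effect in RKO minus A549, 0.66 (SE 0.24, adjusted p = 0.101), was called only under alternatives, among them the replicate block (0.63, adjusted p = 0.0267). IGF1R had a smaller effect in A549 than in H460, at -0.84 (SE 0.24, adjusted p = 0.0175). IGFBP5 also passed between RKO and H460 (fitted value -2.38, adjusted p = 0.0842), but it entered the joint fit through its H460 reads and had 7 reads in the 4 RKO libraries together, so nothing is read from that value. The causes were not tested.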

How the results depend on the processing

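Of 1341 alternative values for the 10 genes, 1258 kept their direction and their side of the threshold, 41 changed sign (none of them a called gene), 25 passed the threshold anew and 17 no longer passed it. The A549 count of 3 higher genes was 5 in the joint fit and 5 with the replicate block, and 2 to 4 when a library was left out. The count of effects differing between RKO and A549 went from 3 to 5 with limma on log2(RPKM + 0.1), with 2 to 4 when a library was left out, and that between RKO and H460 ranged from 3 to 5. The replicate block also called IGFBP4 and INSR in A549, the IGF1R effect between RKO and A549 and the IGFBP2 effect between RKO and H460, and changed no other call of the 10 genes. All genes called in A549, 316 higher and 65 lower, were 106 and 38 with limma at pseudocount 1, 621 and 271 with DESeq2, 1189 and 723 with the block, 169 and 68 without A549 hypoxia replicate 2, and 1083 and 752 without A549 hypoxia replicate 1. All genes whose effect differed between RKO and A549 went from 2270 to 4200 with the block and to 1047 without RKO normoxia replicate 1, and those between A549 and H460 from 5607 to 3553 without H460 hypoxia replicate 1.

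Sign changes were as follows, on the log2 scale. With library size only, limma with 0.1 and limma with 1, H460 IRS1 was -0.29, -0.28 and -0.22, RKO IGFBP2 0.074, 0.065 and 0.062, and RKO IRS1 0.039, 0.041 and 0.027. In the joint fit RKO IGFBP2 was 0.047 and IRS1 0.014. For the effect in RKO minus H460, library size only and limma gave IGF1R 0.20 and 0.18, INSR 0.26 and 0.28, and IRS1 0.33 and 0.32. For A549 minus H460 they gave IGFBP2 0.13 and 0.13, and the block gave IRS2 -0.027. Leaving out a library, ranges that crossed 0 were, for A549 minus H460, IGFBP1 -1.04 to 0.13, IGFBP2 -0.28 to 0.021, INSR -0.23 to 0.49 and IRS2 -0.47 to 0.40, for RKO minus A549, INSR -0.61 to 0.11 and IRS2 -0.21 to 0.66, and for RKO minus H460, IGF1R -0.43 to 0.056 and IRS1 -0.20 to 0.12. They were -0.072 to 0.26 for normoxic IGF1R in A549 minus H460, -0.10 to 0.17 for H460 IRS1, -0.14 to 0.16 for RKO IGFBP2 and -0.20 to 0.12 for RKO IRS1. The H460 shift with library size only follows from its TMM factors, and other causes were not tested. Genes at 4 reads or fewer in a condition, IGFBP1 and IGFBP5 in RKO, limit any fold there.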
